A study of Homo sapiens with 6 samples.

Results

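C12orf49 (now named SPRING1) and the 7 genes it works beside in the processing of the sterol regulatory element-binding proteins (SREBPs), SREBF1, SREBF2, SCAP, INSIG1, INSIG2, MBTPS1 and MBTPS2, were followed in HepG2 cells treated with TGFβ. The 8 genes are 8 of the 57773 rows of the deposited gene table, found by their gene names. They were chosen by name with the difference in C12orf49 between TGFβ and vehicle in these same counts already known, so the fold changes of the 8 genes are given as a description, without a test. HepG2 is a line from a human hepatocellular carcinoma. RNA was sequenced from 6 cultures, 3 exposed for 3 h to recombinant human TGFB1 ligand (5 ng/mL) and 3 given the vehicle for as long. Cells were grown in MEM with serum and, per the study's methods, moved to MEM lacking serum for the treatment in either group. Counted reads ranged from 60815385 to 100099136 per culture. In bulk RNA of this kind, fewer cells and less RNA per cell cannot be told apart.

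SREBPs are made as membrane proteins of the endoplasmic reticulum, where they are bound to SCAP, a sterol-sensing escort. When sterols are plentiful, SCAP is held in the endoplasmic reticulum by the INSIG proteins. When sterols are scarce, SCAP carries the SREBP to the Golgi, where site-1 protease and then site-2 protease cut it and free a transcription factor for genes of cholesterol and fatty acid synthesis. C12orf49 is a small Golgi membrane protein that site-1 protease needs in order to become active. In liver this system sets cholesterol uptake and lipid output, and it is controlled largely through cleavage and transport, which RNA counts do not show.

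The stretch in front of the C12orf49 start site is shown since this is the member whose RNA differed most, that of SREBF2 since it holds a sterol regulatory element, and that of INSIG1 since this gene had almost no reads. Start sites are those of RefSeq (GRCh38.p14 table), and the 250 bases before each were located in GRCh37, the build of the deposited table, at chr12:117175875-117176124 (minus strand), chr22:42228859-42229108 (plus strand) and chr7:155089338-155089587 (plus strand). All 8 members had an entry in the RefSeq table. Capitals mark CCAAT (the box bound by NF-Y, a usual partner of SREBPs), CAGAC (the core SMAD motif), CACGTG (an E-box) and TCACNCCAC (the core of the sterol regulatory element), each searched on both strands.
C12orf49: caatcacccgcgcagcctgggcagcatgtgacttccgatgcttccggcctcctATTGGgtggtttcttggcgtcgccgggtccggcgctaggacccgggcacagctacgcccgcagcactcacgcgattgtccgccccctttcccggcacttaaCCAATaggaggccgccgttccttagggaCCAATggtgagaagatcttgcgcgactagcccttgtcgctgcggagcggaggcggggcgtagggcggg
SREBF2: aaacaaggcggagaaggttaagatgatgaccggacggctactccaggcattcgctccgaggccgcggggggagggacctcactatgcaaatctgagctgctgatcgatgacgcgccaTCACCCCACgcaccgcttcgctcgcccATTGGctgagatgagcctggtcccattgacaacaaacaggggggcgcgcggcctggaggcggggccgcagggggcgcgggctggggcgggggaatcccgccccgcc
INSIG1: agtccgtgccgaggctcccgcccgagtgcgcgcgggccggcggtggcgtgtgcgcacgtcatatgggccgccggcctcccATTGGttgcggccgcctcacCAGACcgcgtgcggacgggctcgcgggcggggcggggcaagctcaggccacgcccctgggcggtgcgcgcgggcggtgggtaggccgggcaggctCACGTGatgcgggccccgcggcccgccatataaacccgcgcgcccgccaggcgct

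The C12orf49 promoter held 3 CCAAT boxes, which start at 197, 96 and 68 bases before the start site. Downstream of its start site, outside the printed stretch, lay a CACGTG from base 3 and a CAGAC from base 34. The SREBF2 promoter held TCACCCCAC 133 bases before the start site, and a CCAAT box on the opposite strand 106 bases before it. The INSIG1 promoter held a CCAAT box, a CAGAC and a CACGTG at 170, 150 and 55 bases before the start site. Among all 35116 RefSeq promoter windows of 300 bases, which reach 50 bases past the start site, 34.6% held CCAAT, 45.3% CAGAC, 7.26% CACGTG and 1.13% TCACNCCAC. In these windows CAGAC was also found at SREBF1, INSIG2 and MBTPS1 and CACGTG at SCAP, while MBTPS2 held none of the 4 motifs. These matches are a description of the letters and not evidence of binding.

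C12orf49 (ENSG00000111412, hg19 chromosome 12 from 117153593 to 117175875, minus strand) had 8985, 7813 and 6314 reads in vehicle cultures 1, 2 and 3 and 24567, 20678 and 19736 reads in TGFβ cultures 1, 2 and 3. As TMM-normalized CPM (counts scaled to a common library size), these values were 102, 94.3 and 103 CPM with vehicle and 254, 257 and 271 CPM with TGFβ. The groups lay far apart, with no overlap and little spread within either. The mean was 99.5 ± 4.56 CPM (SD, n = 3) with vehicle and 260 ± 9.11 CPM (SD, n = 3) with TGFβ. The log2 fold change fitted by edgeR was 1.39 ± 0.07 (SE), or 2.62-fold, and it lay between 1.34 and 1.41 under every alternative setting and with each culture left out.

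The culture numbers paired the samples, so each TGFβ culture can also be set against its partner. C12orf49 had a log2 ratio of 1.32 for cultures numbered 1, 1.45 for cultures numbered 2 and 1.40 for cultures numbered 3. Cultures 1 shared a lane and so did cultures 2, while cultures 3 were run on separate lanes. The C12orf49 ratio across lanes thus lay between those within a lane.

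**Figure D1:**
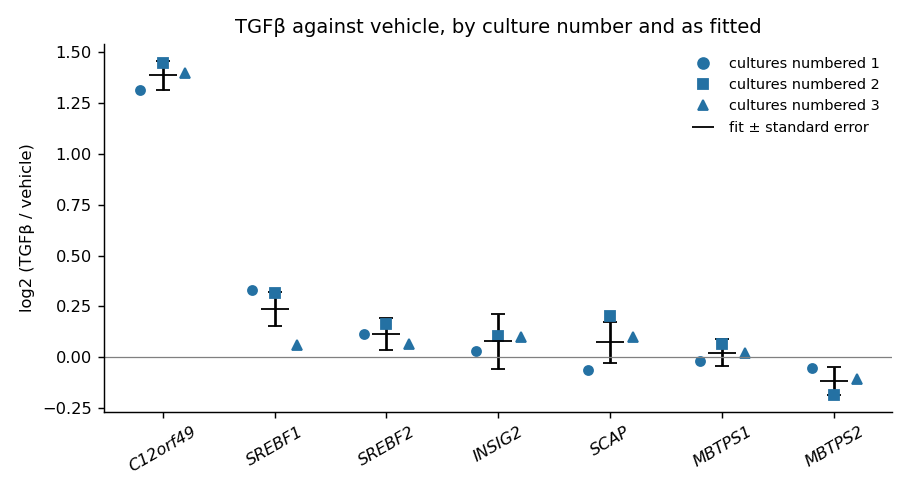
Log2 ratio of normalized counts, TGFβ over vehicle, for the 7 members with enough reads. Blue symbols are the 3 pairs of cultures with the same number, and black bars are the fitted log2 fold change ± its standard error. The 3 symbols of C12orf49 lie between 1.32 and 1.45, and those of every other member lie between -0.18 and 0.33.

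Ranked by fitted log2 fold change, C12orf49 was number 180 of the 22747 tested genes. Most genes ahead of it had fewer reads. Among the 995 genes at least as abundant as C12orf49 it was number 3.

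**Figure D2:**
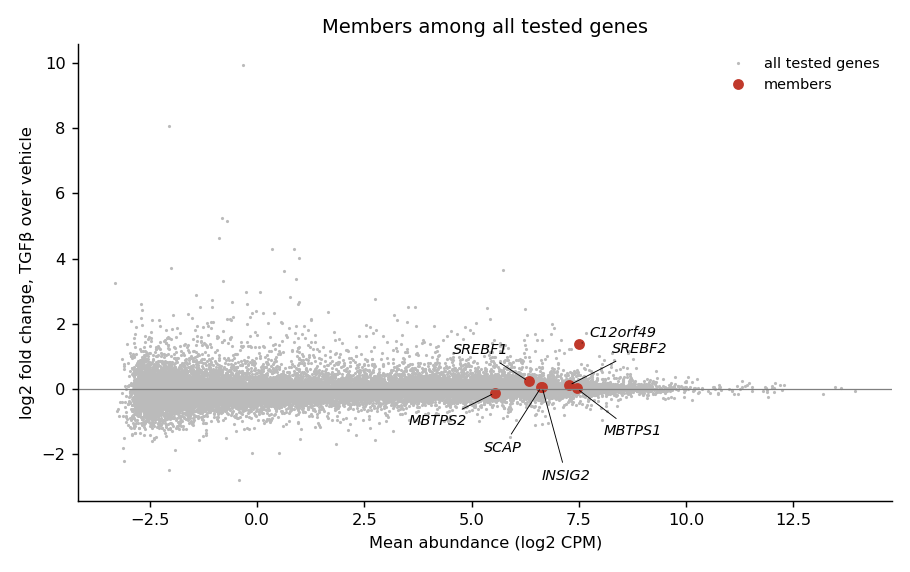
Fitted log2 fold change of TGFβ over vehicle (y axis) against mean abundance in log2 CPM (x axis) for the 22747 tested genes (grey) and the 7 tested members (red). C12orf49 stands at 1.39, and the other 6 members lie between -0.11 and 0.24 within the band of the grey points.

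Of the 8 members, 7 had enough reads to be tested across all genes, and INSIG1 did not. At an FDR under 0.05 in edgeR's quasi-likelihood test, 1 of the 7 members, C12orf49, was called, where 4.12% of all tested genes were called. With the replicate number as a block, 2 members were called, C12orf49 and SREBF1, where 11.8% of all tested genes were called. Normalized counts did not overlap between the groups in 3 members, C12orf49 and SREBF1 (higher with TGFβ) and MBTPS2 (lower with TGFβ), a pattern that 18.6% of tested genes showed. Nothing is read from these counts, since the members were chosen with this contrast known. The median log2 fold change of the 7 members was 0.08, and that of all tested genes was -0.01.

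SREBF1 and SREBF2 encode the SREBPs themselves. SREBF1 (ENSG00000072310, chromosome 17 from 17713713 to 17740325, minus strand) encodes isoforms that these counts do not separate. SREBF1 had 74.9, 68.8 and 77.2 CPM in vehicle cultures 1 to 3 and 94.1, 85.6 and 80.5 CPM in TGFβ cultures 1 to 3. The lowest TGFβ culture, number 3, was close to the highest vehicle culture, also number 3. The fitted log2 fold change was 0.24 (standard error 0.08), or 1.18-fold. The log2 ratio within the pairs was 0.33 and 0.32 for cultures 1 and 2, which shared lanes, and 0.06 for cultures 3, which did not. Without both cultures numbered 3 the fitted value was 0.32. On the deposited RPKM scale (reads scaled by gene length and library size) the SREBF1 groups overlapped, with 7.61, 7.26 and 7.83 RPKM with vehicle and 9.51, 8.84 and 7.76 RPKM with TGFβ. The last 1055 bases of SREBF1 overlap RAI1, a gene on the opposite strand, and the use of strand in counting is not given in the sources used here. For RAI1 itself the fitted value was 0.28 ± 0.11 (log2, SE) with an edgeR FDR of 0.284. With the replicate block, the fit in which SREBF1 was called, RAI1 was called as well (FDR 0.0160), and its part in the SREBF1 values was not tested.

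SREBF2 (ENSG00000198911, chromosome 22 from 42229109 to 42303312, plus strand), the gene of the form that acts mainly on cholesterol synthesis and uptake, had 157, 137 and 149 CPM in vehicle cultures 1 to 3 and 170, 154 and 155 CPM in TGFβ cultures 1 to 3. The groups overlapped, and the fitted log2 fold change was 0.11 (standard error 0.08, or 0.05 with the replicate block). The first 1561 bases of SREBF2 overlap RP5-821D11.7 on the opposite strand, which had between 711 and 931 reads per culture, far below SREBF2. SREBF2 was about as far above SREBF1 in every culture. The ratio of their RPKM was 2.23, 2.13 and 2.05 in vehicle cultures 1 to 3 and 1.92, 1.92 and 2.06 in TGFβ cultures 1 to 3. The introns of SREBF2 and SREBF1 host MIR33A and MIR33B, microRNAs that act on cholesterol export. MIR33A had 0 reads in every culture, and MIR33B had 2, 1 and 1 reads with vehicle and 0 reads in each TGFβ culture, so neither precursor was measurable in these mRNA libraries.

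SCAP (ENSG00000114650, chromosome 3 from 47455203 to 47518616, minus strand), the escort, had 111, 90.4 and 87.5 CPM in vehicle cultures 1 to 3 and 106, 104 and 93.7 CPM in TGFβ cultures 1 to 3. The groups overlapped, and the log2 ratio was negative for cultures 1 (-0.06) and positive for cultures 2 (0.20) and 3 (0.10). The fitted log2 fold change of SCAP was 0.07 (standard error 0.10), and 0.08 with the replicate block (standard error 0.06).

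The INSIG genes encode the proteins that retain SCAP, and their deposited counts were far apart, with a doubt about INSIG1 that is given with its values. INSIG2 (ENSG00000125629, chromosome 2 from 118846028 to 118868573, plus strand) had 99.9, 110 and 80.4 CPM in vehicle cultures 1 to 3 and 102, 119 and 86.2 CPM in TGFβ cultures 1 to 3. In each group culture 2 was highest and culture 3 lowest, so the INSIG2 values followed the culture number more than the treatment. The log2 ratios of INSIG2 within the pairs were 0.03, 0.10 and 0.10, and the fitted log2 fold change was 0.08 (standard error 0.14). With the replicate block, which takes out differences between culture numbers, the INSIG2 value was 0.08 with a standard error of 0.05. The pooled SD of INSIG2 within groups, 0.23 on the log2 CPM scale, was the largest of the 7 tested members, followed by SCAP at 0.15. The smallest were MBTPS1 at 0.05 and MBTPS2 at 0.04, and C12orf49 had 0.06.

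INSIG1 (ENSG00000186480, chromosome 7 from 155089486 to 155101945, plus strand) had 2, 3 and 2 reads in vehicle cultures 1 to 3 and 2, 5 and 0 reads in TGFβ cultures 1 to 3. INSIG1 is widely known as an SREBP target, and its counted level lay between 0.0206 and 0.0621 CPM in the 5 cultures with a read. Whether so few reads reflect little INSIG1 RNA or the way reads were assigned to this gene was not tested, so its values are those of the deposited count and not a measure of its RNA. Over the groups it had 7 reads each, a depth-scaled ratio of 0.902 with TGFβ to vehicle (exact 95% interval 0.270 to 3.02, which covers counting error only). A difference within that interval was not detectable with these counts. No other gene of the table overlaps INSIG1. Its nearest neighbors, AC144652.1 at 235 bases and BLACE at 47735 bases, had at most 5 reads in any culture. By contrast, all 26 genes of the sterol target list described further on had enough reads to be tested, and the lowest value of any of them was 4.33 CPM.

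The proteases that cut SREBPs are site-1 protease (MBTPS1) and site-2 protease (MBTPS2). MBTPS1 (ENSG00000140943, chromosome 16 from 84087368 to 84150511, minus strand) had 178, 174 and 168 CPM in vehicle cultures 1 to 3 and 176, 182 and 170 CPM in TGFβ cultures 1 to 3. The groups overlapped almost fully, with a fitted log2 fold change of 0.02 (standard error 0.07), which became -0.02 with total-count scaling. MBTPS2 (ENSG00000012174, chromosome X from 21857754 to 21903542, plus strand) had 46.8, 49.9 and 48.8 CPM in vehicle cultures 1 to 3 and 45.1, 43.9 and 45.4 CPM in TGFβ cultures 1 to 3. Every TGFβ culture was below every vehicle culture, but the step was small, -0.11 on the log2 scale (SE 0.07, or 0.05 with the replicate block). With total-count scaling the MBTPS2 step was -0.16. YY2, which lies inside MBTPS2, had between 99 and 209 reads per culture.

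Levels of different genes were compared per length, as deposited RPKM. Such levels depend on the deposited gene lengths, for example 3061 bases for C12orf49 and 10226 for MBTPS1. Whether these lengths match the transcripts of these cells was not tested. In CPM, which ignores length, MBTPS1 (173) and SREBF2 (147) were above C12orf49 (99.5) with vehicle. With TGFβ, C12orf49 (260 CPM) was above MBTPS1 (176) and SREBF2 (159). In vehicle cultures the order was C12orf49 (26.9 ± 0.630 RPKM, SD, n = 3), INSIG2 (20.3 ± 3.57), SREBF2 (16.2 ± 0.779), MBTPS1 (14.0 ± 0.564), SCAP (12.7 ± 1.57), SREBF1 (7.57 ± 0.286), MBTPS2 (4.50 ± 0.233) and INSIG1 (0.00692 ± 0.00170). The ranges of INSIG2 and SREBF2 overlapped, as did those of MBTPS1 and SCAP, and the other neighbors in this order were separate. The last place of INSIG1 is that of its deposited count and, as said above, not a measure of its RNA. With TGFβ the order was the same, with the same overlaps, and C12orf49 stood at 68.5 RPKM (67.3 to 69.7 over the 3 cultures). By mean RPKM over a group, C12orf49 was number 1631 of the 57773 genes with vehicle and number 504 with TGFβ.

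**Figure D3:**
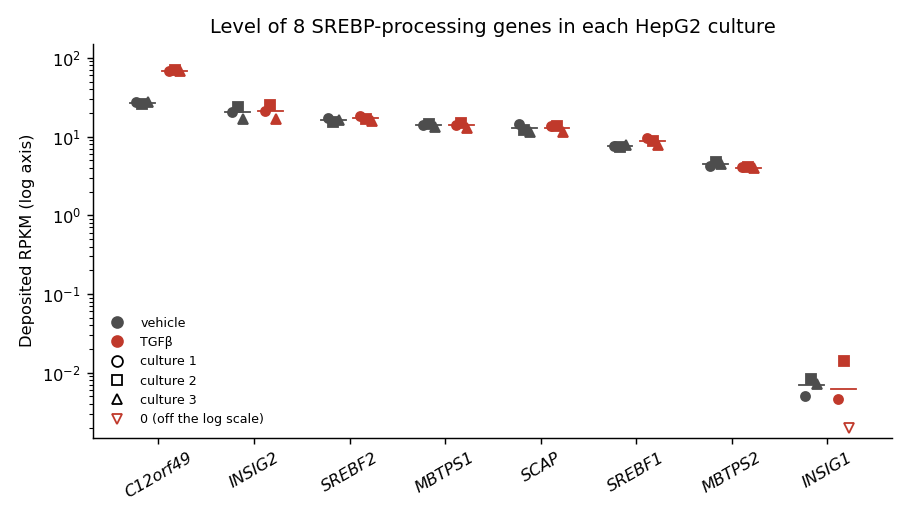
Deposited RPKM on a log axis for the 8 members in each culture, with vehicle in grey and TGFβ in red. Symbols mark the culture number, short lines the group means, and the open triangle the TGFβ culture with 0 INSIG1 reads. C12orf49 has the highest RPKM of the 8 members in both groups and moves from 26.9 to 68.5 RPKM on average. INSIG1 lies below 0.02 RPKM in all cultures, a value of the deposited count and not a measure of its RNA.

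The RNA ratios of C12orf49 to MBTPS1 and SCAP differed between the 2 groups. This restates the difference in C12orf49, since MBTPS1 and SCAP had fitted log2 fold changes of only 0.02 and 0.07. The RPKM ratio of C12orf49 to MBTPS1, the protease that depends on it, was 1.91, 1.81 and 2.04 in vehicle cultures 1 to 3 and 4.82, 4.72 and 5.31 in TGFβ cultures 1 to 3. The ratio of C12orf49 to SCAP was 1.89, 2.14 and 2.41 with vehicle and 4.91, 5.07 and 5.93 with TGFβ. The ratio of MBTPS1 to MBTPS2 lay between 3.00 and 3.32 with vehicle and between 3.28 and 3.62 with TGFβ, ranges that overlapped.

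The region of C12orf49 was followed to its neighbors. RNFT2, on the opposite strand, starts 221 bases from the C12orf49 start, and the stretch between them lies inside the printed promoter. RNFT2 had 773, 699 and 514 reads with vehicle and 1085, 761 and 635 reads with TGFβ. This gave RNFT2 a log2 change of 0.20 ± 0.12 (SE) and an edgeR FDR of 0.572, which did not pass the threshold. On the other side, RP11-497G19.2 at 12658 bases had at most 9 reads in any culture. C12orf49 has 3 processed copies in the genome, SPRING1P1, SPRING1P2 and SPRING1P3, that could take some of its reads. They had 8 reads over the vehicle cultures and 27 over the TGFβ cultures, against 23112 and 64981 reads of C12orf49.

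The 5 tested genes whose log2 CPM over the 6 cultures was most like that of C12orf49 were HOXC12 (Pearson r = 1.000), CRYAA (0.999), AC012531.23 (0.998), MISP (0.998) and ACOX3 (0.998). These correlations rest on 6 cultures in 2 separate groups, so they mainly describe genes that step up between the groups with little spread within them. The fitted log2 change was 1.40 ± 0.08 (SE) for ACOX3, an enzyme of peroxisomal fatty acid oxidation, 1.25 ± 0.08 for CRYAA, a small heat shock protein, and 1.46 ± 0.10 for MISP. HOXC12 and AC012531.23 had 2 or 3 reads in each vehicle culture and between 81 and 104 reads in each TGFβ culture.

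To see whether genes downstream and around the SREBPs differed as well, 5 lists of pathway genes were written from general knowledge and read in the fit over all genes. They hold 89 genes, of which 85 had enough reads. At an FDR under 0.05, 0 were higher and 1 was lower with TGFβ, where 4.12% of all tested genes were called in either direction. At an unadjusted P under 0.05 there were 6 (7.06%), where 13.7% of all tested genes passed. The median log2 fold change of the 85 genes was 0.00. Of the 85 genes, 84 (98.8%) were within 1.2-fold, against 70.8% of all tested genes, many of which had fewer reads. With the replicate block, 4 of the 85 were called, where 11.8% of all tested genes were called. LPIN1 was lower and the other 3 were higher, among them GPAM and RNF139, which were named after their values were seen.

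The sterol targets, 26 genes of cholesterol synthesis and uptake, are the genes on which SREBP-2 acts. All 26 were tested, with 0 higher and 0 lower by either fit, a median log2 fold change of -0.01 and a range from -0.13 to 0.19. HMGCS1, which makes HMG-CoA for cholesterol synthesis, had 142, 153 and 221 CPM in vehicle cultures 1 to 3 and 162, 126 and 197 CPM in TGFβ cultures 1 to 3. Culture 3 was the highest of each group, so these levels also followed the culture number, and the log2 change was -0.09 ± 0.19 (SE) with an edgeR FDR of 0.903. SQLE, a squalene oxidase, had 144, 139 and 169 CPM with vehicle and 169, 140 and 174 CPM with TGFβ, with culture 3 again on top, and a log2 change of 0.10 ± 0.11 (SE) with an edgeR FDR of 0.802. STARD4, a sterol carrier, had a log2 change of -0.06 (FDR 0.875), and MYLIP, a ubiquitin ligase, had 0.03 (FDR 0.966).

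The fatty acid and triglyceride targets hold 19 genes, of which 16 were tested, with 0 higher, 1 lower and a median log2 fold change of 0.01. The other 3, among them ME1 and THRSP (named after their values were seen), had at most 13 reads in any culture. LPIN1, the enzyme that makes diacylglycerol from phosphatidic acid and also a nuclear cofactor, fell with TGFβ. It had 14.0, 16.0 and 16.0 CPM in vehicle cultures 1 to 3 and 11.7, 10.5 and 11.7 CPM in TGFβ cultures 1 to 3, with no overlap. The LPIN1 change was -0.44 ± 0.10 (log2, SE) with an edgeR FDR of 0.0413. The call was lost without vehicle replicate 2 (FDR 0.161), vehicle replicate 3 (0.194), TGFβ replicate 1 (0.0917), TGFβ replicate 2 (0.153) or TGFβ replicate 3 (0.0551), and without both cultures numbered 3 (0.225), while the log2 fold change stayed between -0.47 and -0.41 in these fits. FASN, the fatty acid synthase, had 629 ± 50.3 CPM (SD, n = 3) with vehicle and 634 ± 135 CPM (SD, n = 3) with TGFβ, and SCD, the stearoyl-CoA desaturase, had 1216 ± 115 CPM and 1258 ± 210 CPM. Neither passed the threshold (FDR 0.985 and 0.923).

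The sterol sensing and turnover regulators (20 genes, all tested, median -0.03) and the COPII and Golgi transport genes (16 genes, all tested, median 0.04) had 0 higher and 0 lower. In the first list, SOAT1, which esterifies cholesterol, had a log2 fold change of -0.05, NR1H3, the liver X receptor alpha, of -0.10, FBXW7, which targets nuclear SREBPs for breakdown, of -0.10 and PAQR3, a Golgi anchor of SCAP, of 0.08. RNF139, a ubiquitin ligase of the endoplasmic reticulum, had 0.20 (FDR 0.195, and 0.0372 with the block). GPAM of the fatty acid list, the first enzyme of glycerolipid synthesis, had 0.20 (FDR 0.366, and 0.0198 with the block). SEC24A, a cargo-binding coat protein that carries SCAP, had 0.11 ± 0.09 (log2, SE) with an FDR of 0.727. Of the 8 other substrates of the site-1 and site-2 proteases, 7 were tested and 0 were called, with a median of -0.01. ATF6, a stress sensor cut by these proteases, had a log2 fold change of 0.08 (FDR 0.709), and CREB3 had 0.05 (FDR 0.864). CREB3L1 was not tested, with at most 8 reads.

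**Figure D4:**
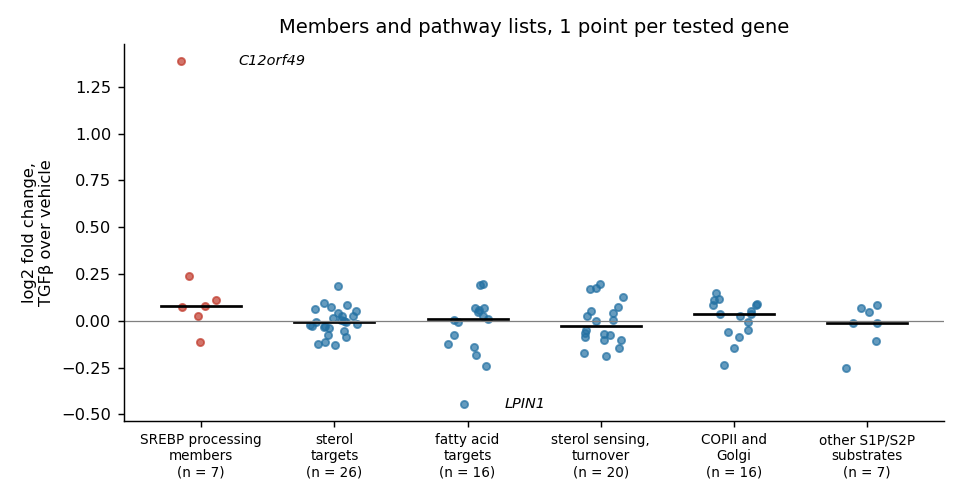
Fitted log2 fold change of TGFβ over vehicle (y axis) for the tested members (red) and the tested genes of 5 pathway lists (blue), 1 point per gene, with black lines at the medians. The list medians lie between -0.03 and 0.04, LPIN1 is the lowest point at -0.44, and C12orf49 is the highest at 1.39.

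The labels of the libraries were checked with known TGFβ targets and cell markers. SMAD7, SKIL and PMEPA1 were higher with TGFβ by log2 fold changes of 1.72, 2.45 and 4.30 (FDR 3.73e-05, 8.43e-06 and 4.41e-05). All 8 hepatocyte markers were tested, with 0 called without the block and 2 lower with TGFβ with it, among them FGB, a fibrinogen chain (log2 change -0.20, FDR 0.722, and 0.0331 with the block). Of all tested genes, 4.12% were called without the block and 11.8% with it, in either direction. Of the 7 markers of other cells found in the table, only LYZ and CD68 had more than 14 reads in a culture, and COL1A2, DCN, LUM, PTPRC and VWF did not. The summed level of these 7 was 1133 to 1458 CPM with vehicle and 985 to 1084 CPM with TGFβ, almost all of it LYZ, whose log2 change was -0.35 ± 0.10 (SE) with an FDR of 0.106, and of 0.0157 with the block, where LYZ was called lower. Whether these differences play a part in the members' values was not tested.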

How the data were processed

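Poly(A) RNA libraries (TruSeq v2) of 3 vehicle and 3 TGFβ cultures of HepG2 were analysed, with groups and culture numbers taken from the sample labels. The study's methods call the sequenced samples biological replicates. The labels do not say how the cultures of a group were set up, and p-values measure the spread between these samples. The submitters' processing notes name hg19, bcl2fastq, TopHat2 2.0.6 and HTSeq, and the study's methods name MAPRseq, a pipeline for RNA-seq. Neither annotation release nor strand setting is given in those sources. The authors deposited raw counts per gene, used for all fits, and RPKM values, used here only for levels between genes. The deposited RPKM are scaled by the gene length of the table and by totals 1.19 to 1.28 times the counted reads.

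Counts were fitted with edgeR 4.0.16 (R 4.3.3, limma 3.58.1): TMM, filterByExpr, the robust quasi-likelihood test (no block) and FDRs by the Benjamini-Hochberg method over 22747 genes. Standard errors follow from the F statistic. Log2 CPM used a prior count of 2. Same-numbered cultures deviated together across genes (r = 0.366, 0.227 and 0.316, and at most 0.0101 between different numbers), so the number was taken to pair them. Alternatives were the block, DESeq2 1.42.0, limma-voom, size factors of DESeq2 within edgeR, scaling by total counts, dropping the filter, a minimum of 10 counts per library, and leaving out each culture. Leaving out both cultures numbered 3 was added after the data were seen. The code was tested on simulated data.

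The members and lists were chosen with earlier results of these data known. Named genes were all members, 14 genes of the lists, list genes with the largest called changes, the 5 genes most like C12orf49, overlapping and nearest genes, MIR33A and MIR33B, and SMAD7, SKIL and PMEPA1. Promoters and positions were read from RefSeq and GRCh37. Protein sequences were not used here, and some genes that the rule names are not reported here.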

Additional observations from a re-analysis of the deposited data

How the results depend on the processing

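The log2 fold change of C12orf49 kept its sign and lay between 1.34 and 1.41 under all alternatives run. Of all genes, 937 were called, against 1415 with DESeq2, 2690 with the replicate block, 485 to 998 with a culture left out (485 without vehicle replicate 3, 518 without vehicle replicate 2, 561 without TGFβ replicate 2) and 399 without both cultures numbered 3, a setting chosen after seeing the data. Pairing by culture number with the replicate block gave 2 called members instead of 1, by adding SREBF1, and 4 called genes of the pathway lists instead of 1. The latter count was 0 to 1 with a culture left out and 0 without both cultures numbered 3. Signs turned in INSIG2 (to as low as -0.053 with a culture left out), in MBTPS1 (-0.019 with total-count scaling, and also without TGFβ replicate 2) and in 6 of the named list genes, which passed no threshold. FASN was -0.032 with total-count scaling, -0.011 without the filter, -0.0051 with limma-voom and -0.0056 with the block. MYLIP was -0.016 with total-count scaling and -0.036 without the cultures numbered 3. With a culture left out, log2 fold changes ranged from -0.0050 to 0.071 (CREB3), -0.18 to 0.088 (FASN), -0.26 to 0.13 (HMGCS1), -0.074 to 0.11 (MYLIP), -0.085 to 0.15 (SCD) and -0.14 to 0.022 (STARD4). The causes were not tested. INSIG1, MIR33A and MIR33B had too few counted reads for a change to be measured, and SREBF1 counts do not separate its isoforms.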
